A study of Mus musculus with 6 samples.

Results

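The replication-dependent histone genes of the mouse lie in 4 clusters, named Hist1 to Hist4, and encode the linker histone H1 and the core histones H2A, H2B, H3 and H4. They were taken here as every entry of the deposited gene table whose symbol begins with a cluster and a histone type (Hist1h1a, Hist2h4 and so on). This gave 70 entries, of which 3 were classed as pseudogenes and left out, so that 67 of 54525 genes remained. Hist1 held 54 of them, Hist2 10, Hist3 2 and Hist4 1, and by type there were 6 H1, 18 H2a, 18 H2b, 12 H3 and 13 H4 genes. These genes are transcribed mainly in S phase, when new DNA has to be packed into nucleosomes. Their mRNAs typically carry no poly(A) tail and end just after a conserved stem-loop, though not every annotated transcript of these genes ends there. The stem-loop is bound by the protein Slbp, and the RNA is cut after it with the help of the U7 particle. Npat and Casp8ap2 (FLASH) act in nuclear bodies at the histone gene clusters. Prmt5, the gene targeted in this study, encodes an enzyme that places symmetric dimethyl marks on arginines of histones and of the Sm proteins of RNA particles.

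Total RNA was sequenced after removal of ribosomal RNA, so transcripts without a poly(A) tail were within reach of the libraries. The cells were naive CD4 T cells of C57BL/6 mice, from spleen and lymph nodes, cultured for 72 hours on antibodies to CD3 and CD28 with recombinant human TGFβ and mouse IL-6, which steer them toward Th17 cells. WT was 3 cultures of genotype iCD4-PRMT5fl/fl, in which the gene is flanked by recombination sites, and KO was 3 cultures of genotype iCD4-PRMT5delta/delta. The age and sex of the mice and the driver of the deletion were not given in the sources used here. The series' design calls the 3 samples of a genotype biological replicates, but the column names of the KO libraries each join a number of their own to 1 number common to all 3, and its meaning was not stated. If it marks shared material, the KO libraries are not independent and the p-values are too small.

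The libraries held 36011906 to 43141474 counts. TMM scaling, which corrects for library composition, was applied before levels were put on the counts-per-million scale (CPM). Changes are log2 KO over WT ± SE with p-values adjusted by Benjamini-Hochberg over the 16006 genes tested, by the quasi-likelihood test of edgeR. An adjusted p under 0.05 counted as a call. Prmt5 was at 109, 137 and 118 CPM in the WT libraries and at 52.4, 43.8 and 52.9 CPM in KO, a change of -1.29 ± 0.11 (edgeR adjusted p = 0.00012). The summed T cell markers ranged from 1838 to 2212 CPM over the WT libraries and from 1925 to 2058 CPM over the KO libraries, with 1 of the 7 markers called lower (Cd2) and 2 higher (Lck and Cd3e). The Th17 markers summed to 330.2 to 491 CPM for WT and 42.4 to 55.7 CPM for KO, and 3 of the 4 were called lower. Reads of Y-linked genes were found in the KO libraries only, at a lower level in KO replicate 2 than in the other KO libraries. The Y-linked level thus followed genotype, so a difference by sex cannot be told apart from a difference by genotype here. Traces of other cells were higher in KO, with summed B cell markers in the range 3.34 to 17.8 CPM for WT and 35.2 to 95.7 CPM for KO (4 of 4 called higher), and myeloid markers at 0.221 to 0.878 and 6.57 to 25.8 CPM (3 of 3 tested called higher). The sum of the CD8 markers was 5.58 to 7.88 CPM for WT and 14.7 to 17.2 CPM for KO (2 of 2 called higher), gamma delta T cell markers to 6.02 to 7.34 and 17.2 to 32.1 CPM (2 of 2 tested), and NK and innate lymphoid markers to 14.1 to 16.2 and 22.1 to 56.2 CPM (1 of 1 tested). Of the erythroid markers, Hbb-bs was at 0 in all libraries. The part of these cells in the histone results was not tested.

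The stem-loop is the feature that sets these mRNAs apart, and it was looked for in the annotated transcripts as the histone stem-loop consensus of 16 letters on the transcript strand. It was found in 46 of the 67 genes, against 68 of all 21901 protein-coding genes (0.31%). Within the last 100 bases of a transcript it was found in 23 of the 67 and in 24 of all protein-coding genes. The 46 genes shared 8 distinct cores. One core was shared by 26 genes of several types, another by 7 H4 genes and a further one by 6. The sequences below show the stem-loops of genes that fell and of Hist3h2a, which rose, so that they can be set side by side. They are read from GENCODE M21 transcripts (GRCm38) with the 16-letter core in capitals and written in DNA letters.
Hist1h1c: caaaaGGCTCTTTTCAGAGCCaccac
Hist1h2ab: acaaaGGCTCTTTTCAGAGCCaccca
Hist3h2a: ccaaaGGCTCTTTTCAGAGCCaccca
Hist2h2ac: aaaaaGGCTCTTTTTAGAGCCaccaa
Hist1h2bb: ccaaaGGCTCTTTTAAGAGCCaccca
Hist1h3f: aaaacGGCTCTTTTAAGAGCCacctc
Hist1h4d: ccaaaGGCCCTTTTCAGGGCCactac
Hist4h4: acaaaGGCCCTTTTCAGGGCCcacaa
Hist2h4: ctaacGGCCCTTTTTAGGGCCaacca

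Hist3h2a carries the same core as Hist1h1c and Hist1h2ab. In Hist3h2a 1643 annotated bases follow the core, in Hist4h4 2445 and in Hist1h2ab 11. Hist2h2be, the other gene that rose, had no match in its annotated transcript. A missing match says only that these letters are not in the annotated transcript, and several annotated transcripts without one end close to the coding region.

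Most of the histone genes fell in KO. Of the 67 genes, 64 passed the filter on low counts and 57 of those were called lower, 2 higher (Hist2h2be and Hist3h2a) and 5 not called. Over all genes, 42.5% were called, 20.9% lower and 21.7% higher, so the share of histone genes called lower was well above that background. The median change of the 64 was -0.66, with quartiles of -0.77 and -0.52, while the median of all tested genes was 0.00. In 58 of the 64 every KO library was below every WT library, a pattern found in 27.48% of all tested genes. All 46 genes with at least 100 CPM in WT were called lower. Of the 10 tested genes under 10 CPM, 4 were.

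**Figure D1:**
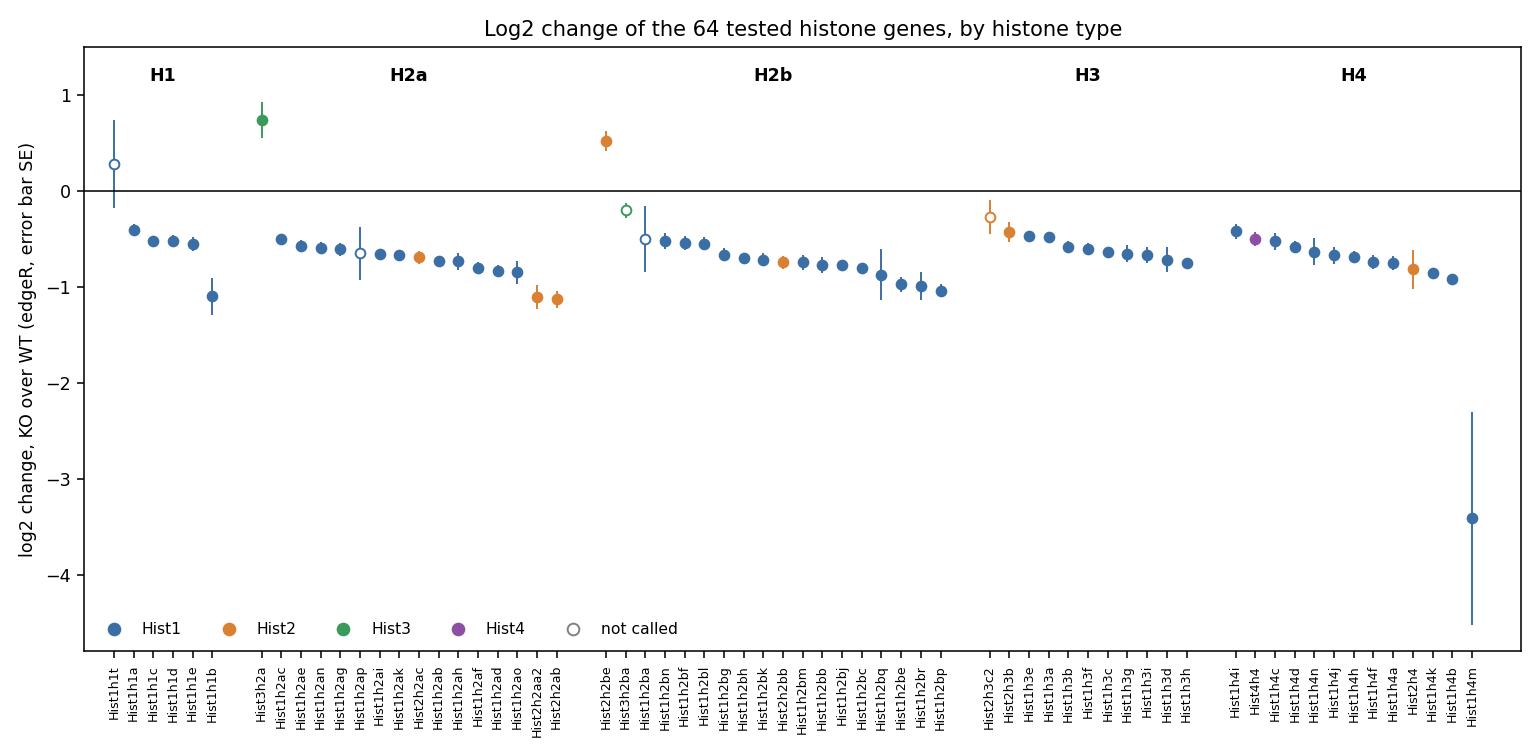
Log2 change of KO over WT (y axis) with its SE for the 64 tested histone genes, grouped by type and coloured by cluster, with open points for the 5 genes not called. The bulk of the points sits between -1 and -0.4, Hist1h4m stands far below at -3.42 with a wide error, and Hist3h2a and Hist2h2be stand above 0.

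The size of the fall differed between genes, from -0.40 ± 0.06 in Hist1h1a to -1.13 ± 0.09 in Hist2h2ab. Hist1h4m lay apart at -3.42 ± 1.12. Of the 57 called lower, 52 changed by between -1 and -0.4 and 5 by more than -1. Summed over all 67 genes the level was 22505, 24976 and 24613 CPM in WT replicates 1, 2 and 3 and 15067, 15905 and 15061 CPM in KO. The groups did not overlap, and KO reached 63.9% of WT by the means. The same genes took 2.21% to 2.36% of all gene counts in WT and 1.56% to 1.65% in KO. In bulk RNA, fewer cells in S phase and less histone RNA per cell cannot be told apart.

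The linker histone genes fell least by their median (-0.52, 6 tested, 5 lower). H1 proteins bind the DNA between nucleosomes and help to compact chromatin. Hist1h1c was at 1605, 1657 and 1760.1 CPM in the WT libraries and at 1148, 1224 and 1132 CPM in KO, a change of -0.52 ± 0.05 (edgeR adjusted p = 0.0003). Hist1h1d was at 1348, 1427 and 1489 CPM in WT and at 954, 1062 and 948 CPM in KO (-0.52 ± 0.06). All KO libraries were below all WT libraries for both genes. Hist1h1e was at 1249.8, 1255 and 1468 CPM in WT and at 853, 907 and 953 CPM in KO (-0.55 ± 0.08). Hist1h1a, at 649.5, 735 and 691 CPM in WT and 501, 549 and 520.0 CPM in KO, had the smallest fall called among all histone genes (-0.40 ± 0.06). The groups were apart in Hist1h1e and Hist1h1a as well.

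Hist1h1b was the H1 gene that fell most, and its WT libraries were spread wider than those of the other H1 genes called lower. It was at 590.4, 1009 and 705 CPM in WT and at 393, 304 and 378 CPM in KO, a change of -1.10 ± 0.19 (edgeR adjusted p = 0.0033). WT replicate 2 was 1.71 times WT replicate 1, yet the groups did not overlap. Without WT replicate 2 the change was -0.86, and the gene was still called. Hist1h1t, the H1 gene of the testis, was at 0.227, 0.123 and 0.393 CPM in WT and 0.360, 0.318 and 0.232 CPM in KO. Its groups overlapped and it was not called, and without WT replicate 2 its value changed sign (0.28 to -0.055).

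Of the H2A genes 16 were tested, 14 were lower and 1 was higher, with a median of -0.68. H2A pairs with H2B in the nucleosome. Hist1h2ak was at 589, 642 and 659 CPM in WT and at 388, 408 and 393 CPM in KO (-0.67 ± 0.06). Hist1h2ab was at 430.3, 413 and 435 CPM in WT and at 256, 265 and 252 CPM in KO (-0.73 ± 0.05). Hist2h2ac was at 341, 373 and 356 CPM in WT and at 223, 234 and 206 CPM in KO (-0.69 ± 0.06). None of these 3 had a KO library within the range of WT, and the edgeR adjusted p was 0.00019 or less in each.

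A pair of lowly counted Hist2 genes had larger falls. Hist2h2ab was at 21.3, 23.6 and 23.8 CPM in WT and at 10.3, 10.6 and 10.5 CPM in KO (-1.13 ± 0.09, edgeR adjusted p = 8e-05). Hist2h2aa2 was at 6.23, 6.98 and 5.84 CPM in WT and at 3.03, 2.86 and 2.96 CPM in KO (-1.10 ± 0.13). In both genes the KO libraries lay close together, well below the lowest WT library. Hist2h2aa2 shares all of its 50-base words with Hist2h2aa1, which was not tested, so reads of this pair cannot be assigned to 1 copy by sequence.

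Of the 18 H2B genes, all tested, 15 were lower and 1 was higher, with the lowest median of the 5 types (-0.73). Hist1h2be was at 764, 829.5 and 803 CPM in WT and at 402, 451 and 369 CPM in KO (-0.97 ± 0.08, edgeR adjusted p = 0.0001). Its annotated exons overlap part of the exon of Hist1h1e on the same strand, so part of its reads may be counted for either gene or for none. Hist1h2bb was at 698, 790.0 and 750.1 CPM in WT and at 434, 479.8 and 399 CPM in KO (-0.77 ± 0.08). Hist1h2bn was at 547, 612 and 594 CPM in WT and at 393, 452 and 377 CPM in KO (-0.52 ± 0.08). Hist1h2bp, with fewer counts, had the largest H2B fall, from 54.5, 60.6 and 56.4 CPM to 27.4, 28.0 and 28.2 CPM (-1.04 ± 0.07). The groups did not overlap in any of these 4 genes, and KO replicate 2 was the highest KO library in the first 3. The call of the lowly counted Hist1h2bq (-0.87) was lost without WT replicate 1, WT replicate 3, KO replicate 1 or KO replicate 2, each left out alone (edgeR adjusted p = 0.065 to 0.10), and Hist1h2ap was called without WT replicate 1 (edgeR adjusted p = 0.029).

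H3, the core histone whose tail carries many of the best known marks, had 11 tested genes with 10 lower and a median of -0.60. Hist1h3f was at 806, 908 and 872 CPM in WT and at 542, 606 and 553 CPM in KO (-0.60 ± 0.07). Hist1h3e was at 663, 732 and 733 CPM in WT and at 491, 528 and 515 CPM in KO (-0.47 ± 0.06). Hist1h3c was at 568, 621 and 613 CPM in WT and at 380.4, 404 and 375 CPM in KO (-0.64 ± 0.06). In these 3 genes the lowest WT library was above the highest KO library.

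Hist1h3a and Hist2h3b were, with Hist1h3e, among the 5 smallest falls called. Hist1h3a was at 348, 359 and 357 CPM in WT and at 250.3, 266 and 247 CPM in KO (-0.48 ± 0.05, edgeR adjusted p = 0.0003). Hist2h3b was at 187, 229 and 243 CPM in WT and at 153, 159 and 177 CPM in KO (-0.43 ± 0.10, edgeR adjusted p = 0.013). The groups were apart in both, but by little in Hist2h3b, whose call was lost without KO replicate 1 (edgeR adjusted p = 0.055). Hist2h3c1 had 0 counts in every library. By counting error alone this allows at most 3 counts per library, or 0.0695 to 0.085 CPM. Of its sequence words 0% are its own among annotated transcripts, and its annotated exons overlap Gm20634 on the same strand. Its reads may be counted for another gene or for none, so the 0 does not bound its level.

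All 13 H4 genes were called lower, with a median of -0.68. H4 pairs with H3 at the core of the nucleosome and is among the histones that Prmt5 methylates. Hist1h4d was at 1232, 1405 and 1410.4 CPM in WT and at 878, 939 and 888 CPM in KO (-0.58 ± 0.06). Hist1h4h was at 826, 913 and 923 CPM in WT and at 529, 555 and 571 CPM in KO (-0.68 ± 0.06). Hist1h4f was at 748, 868 and 855 CPM in WT and at 491, 521 and 466 CPM in KO (-0.74 ± 0.07, edgeR adjusted p = 0.00023). WT replicate 1 was the lowest WT library in all 3 and still above every KO library. Per kilobase of the deposited gene length, Hist1h4k (2109 CPM per kb) and Hist1h4f (2107 CPM per kb) had the highest WT levels of all histone genes. That order depends on how far each transcript is annotated past the stem-loop.

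Hist1h4i had a small fall, with 62.9, 74.1 and 68.3 CPM in the WT libraries against 49.2, 53.8 and 50.6 CPM in KO (-0.42 ± 0.08, edgeR adjusted p = 0.0039). Hist2h4 was at 109.9, 198 and 151 CPM in WT and at 91.2, 74.7 and 95.6 CPM in KO (-0.81 ± 0.20, edgeR adjusted p = 0.014). As in Hist1h1b, WT replicate 2 was the highest and KO replicate 2 the lowest library. Without KO replicate 2 the call of Hist2h4 was lost (-0.71, edgeR adjusted p = 0.055).

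One library decided the value of Hist1h4m. It was at 75.9 CPM in WT replicate 1, at 4.62 and 4.79 CPM in WT replicates 2 and 3, and at 2.47, 2.76 and 2.73 CPM in KO (-3.42 ± 1.12, edgeR adjusted p = 0.041). Without WT replicate 1 the change was -0.83 (edgeR adjusted p = 0.0053). Without any 1 of the KO libraries it was no longer called (edgeR adjusted p = 0.11 to 0.12). Hist1h4m shares 89.8% of its 50-base words with Hist1h4n, which in turn was lowest in the same WT library, at 184 CPM against 284 and 248 CPM in the other WT libraries and 155, 157 and 151 CPM in KO. The sum of both genes, taken after their values were seen, was 260.0, 289 and 253 CPM in WT and 157, 159 and 153 CPM in KO. The uneven level of WT replicate 1 was no longer seen in the sum, whose means differed by -0.77 on the log2 scale.

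**Figure D2:**
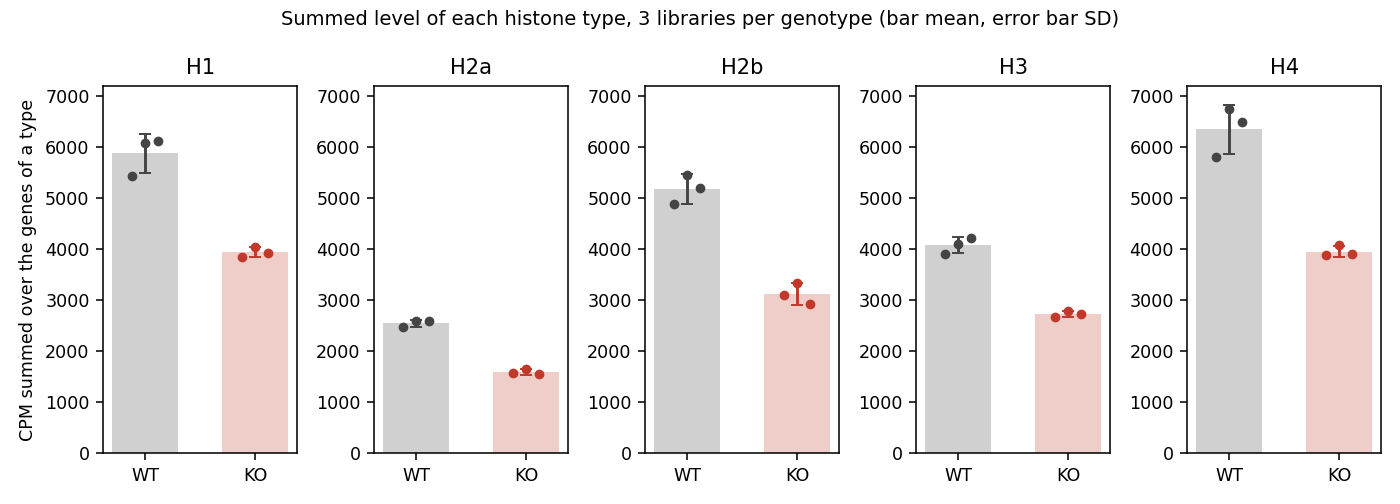
CPM summed over the genes of each histone type (y axis) in WT and KO, with a point per library, the mean as a bar and the SD as error bar (3 libraries per genotype). In each of the 5 panels all KO points lie below all WT points.

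By type, the summed level in KO was 60.3% of WT for H2b, 62.3% for H4, 62.7% for H2a, 66.9% for H3 and 67.1% for H1. The H1 sum went from 5880 ± 378 CPM (SD, n = 3) in WT to 3943 ± 98.2 CPM in KO, and the H2b sum from 5179 ± 288 to 3122 ± 206 CPM. The share of H1 in the sum of all histone genes was 24.2% to 24.8% in WT and higher in each KO library, at 25.4% to 26.1%. The share of H2b was 21.1% to 21.8% in WT and lower in each KO library, down to 19.5%. The differences between types were not tested.

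The Hist1 cluster lies on chromosome 13 in 2 blocks 1.49 Mb apart by their nearest starts (GRCm38). In the first block, chr13:21715763-22043676, 22 of 23 tested genes were lower, with a median of -0.71, and the summed level in KO was 59.9% of WT. In the second block, chr13:23531050-23934851, 28 of 30 were lower, with a median of -0.62, and the summed level was 65.1% of WT. None of the Hist1 genes was called higher.

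**Figure D3:**
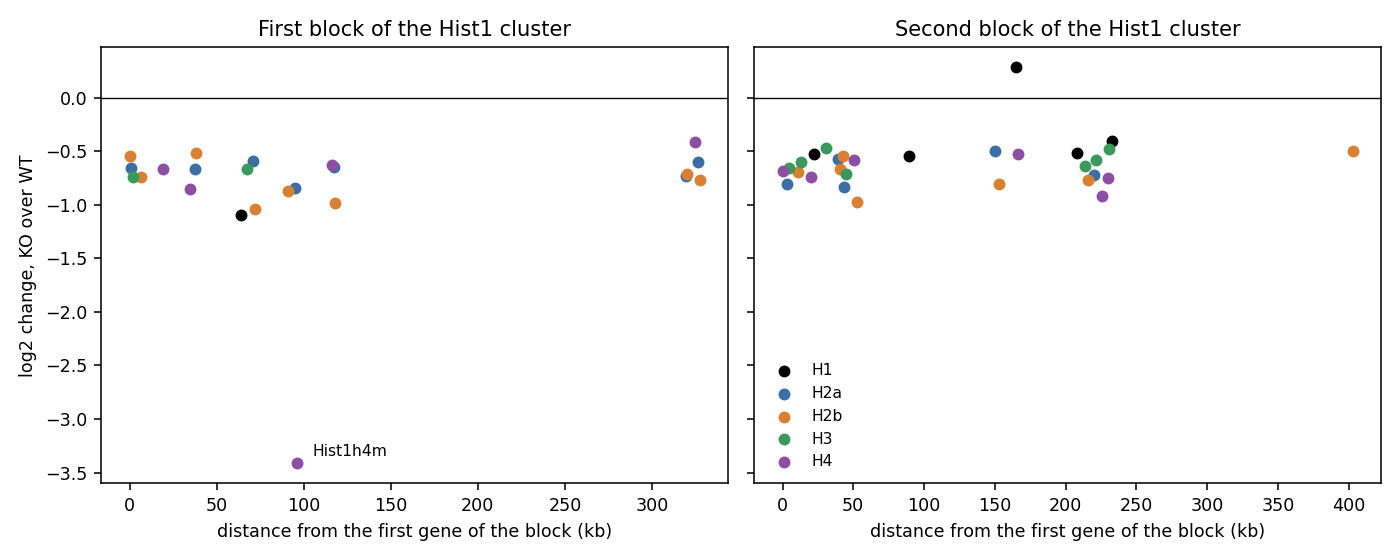
Log2 change of KO over WT (y axis) of the tested Hist1 genes against the distance from the first gene of their block in kb (x axis), coloured by histone type. Genes of all types lie below 0 along both blocks except Hist1h1t at 0.28, and Hist1h4m stands apart at -3.42.

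The Hist2 cluster on chromosome 3, from 96219865 to 96270132, had 8 tested genes, of which 6 were lower and 1 was higher. Its median of -0.72 was close to that of Hist1. Its summed level fell from 1097 ± 105 CPM (SD, n = 3) to 694 ± 4.79 CPM, or to 63.2%. Hist4h4, the 1 gene of Hist4 on chromosome 6, was at 174, 202 and 184 CPM in WT and at 125, 129 and 141 CPM in KO (-0.50 ± 0.07, edgeR adjusted p = 0.0015).

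The Hist3 cluster on chromosome 11 had 0 of 2 genes called lower. Its summed level was 34.9, 40.1 and 37.8 CPM in WT and 34.5, 34.8 and 34.3 CPM in KO. The groups did not overlap, though by little, and KO reached 91.8% of WT. Hist3h2ba was at 32.6, 38.1 and 35.7 CPM in WT and at 31.0, 30.4 and 31.4 CPM in KO. The KO libraries were all below WT, but the change of -0.20 ± 0.08 was not called (edgeR adjusted p = 0.077); without WT replicate 1 it was (edgeR adjusted p = 0.034). Hist3h2a was at 2.32, 1.99 and 2.18 CPM in WT and at 3.48, 4.45 and 2.94 CPM in KO, a rise of 0.74 ± 0.19 (edgeR adjusted p = 0.016). All KO libraries were above all WT libraries, and KO replicate 2 was the highest. Its annotated exon overlaps Trim17 on the same strand and another gene on the opposite strand, so its low counts are uncertain. The pseudogene Hist3h2bb-ps next to it was at 21.8, 26.5 and 24.2 CPM in WT and at 17.7, 18.3 and 16.8 CPM in KO, and was called lower (-0.46 ± 0.09).

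Many histone genes, mostly an H2A with an H2B gene, are arranged head to head and share the sequence between their starts. There were 13 head-to-head pairs of histone genes with starts under 1000 bases apart, among them Hist1h2bh with the H3 gene Hist1h3f, and in 12 both genes were tested. Both genes were called lower in 10 pairs, in which the changes of the partners differed by 0.02 to 0.45, with a median of 0.13. In the pair Hist1h2ap and Hist1h2br the second was called lower and the first was not.

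**Figure D4:**
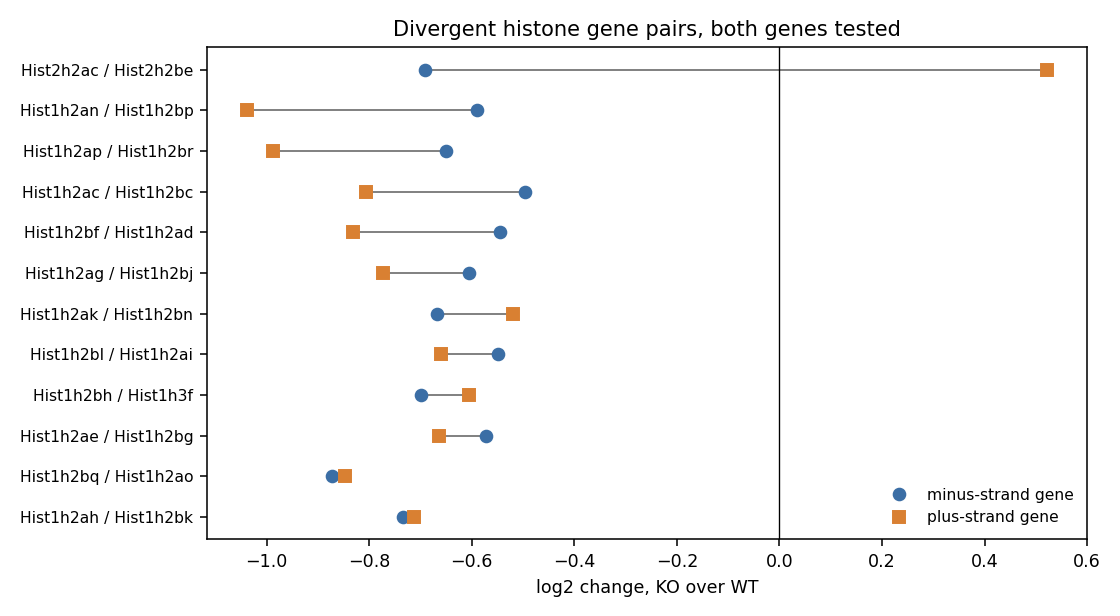
Log2 change of KO over WT (x axis) of both genes of the 12 head-to-head pairs with both genes tested, with circles for the minus-strand and squares for the plus-strand gene. In 11 pairs both symbols lie below 0, and only in Hist2h2ac and Hist2h2be do they lie on opposite sides.

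The pair Hist2h2ac and Hist2h2be, 239 bases apart from start to start, moved in opposite directions. Hist2h2be was at 7.42, 8.18 and 7.66 CPM in WT and at 11.5, 11.5 and 10.4 CPM in KO, a rise of 0.52 ± 0.10 (edgeR adjusted p = 0.0051), while Hist2h2ac fell as described. The groups did not overlap for either gene. The ratio of Hist2h2be to Hist2h2ac counts was 0.0217, 0.0219 and 0.0215 in WT and 0.0517, 0.0491 and 0.0507 in KO. All of the 50-base words of Hist2h2be are its own among annotated transcripts, on either strand. Matches with differing letters and copies that are not annotated were not searched.

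The start regions were searched for 4 short motifs in 62 genes with a RefSeq promoter (GRCm38.p6), from 250 bases before to 50 after the start, on both strands, beside all 27025 genes of that table. TATAAA, the core of the TATA box, was in 35 (56.5%) against 15.7% of all genes, and CCAAT in 53 (85.5%) against 41.1%. Every H1, H2a, H2b and H3 promoter in the set had CCAAT, and 3 of 12 H4 promoters did. The octamer ATTTGCAT, the letters that Pou2f1 (Oct-1) binds, was in 14 promoters (1.97% of all genes), 7 of H2a and 7 of H2b genes. AAACACA, known from H1 promoters, was in 9 promoters (8.22% of all genes), 5 of them among the 6 H1 genes. The promoters below are those of a gene that fell (Hist1h2ab), of the gene that rose from Hist3 and of the region between Hist2h2ac and Hist2h2be, which moved apart. Each is written on the strand of the named gene with matches of the 4 motifs, on either strand, in capitals. They lie at chr13:23750838-23751137 on the plus strand, chr11:58954435-58954734 on the plus strand and chr3:96220831-96221130 on the minus strand.
Hist1h2ab: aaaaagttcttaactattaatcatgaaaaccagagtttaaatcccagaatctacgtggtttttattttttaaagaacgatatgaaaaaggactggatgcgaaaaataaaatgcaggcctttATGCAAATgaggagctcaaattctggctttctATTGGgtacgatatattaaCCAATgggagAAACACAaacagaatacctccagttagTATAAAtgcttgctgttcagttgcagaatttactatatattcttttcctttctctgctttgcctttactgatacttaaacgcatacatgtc
Hist3h2a: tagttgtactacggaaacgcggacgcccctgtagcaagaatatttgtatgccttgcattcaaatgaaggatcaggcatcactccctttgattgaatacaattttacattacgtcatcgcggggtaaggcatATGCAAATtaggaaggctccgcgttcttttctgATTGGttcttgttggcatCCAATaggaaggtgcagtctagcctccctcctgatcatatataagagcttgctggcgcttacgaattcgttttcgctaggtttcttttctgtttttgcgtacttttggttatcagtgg
Hist2h2ac: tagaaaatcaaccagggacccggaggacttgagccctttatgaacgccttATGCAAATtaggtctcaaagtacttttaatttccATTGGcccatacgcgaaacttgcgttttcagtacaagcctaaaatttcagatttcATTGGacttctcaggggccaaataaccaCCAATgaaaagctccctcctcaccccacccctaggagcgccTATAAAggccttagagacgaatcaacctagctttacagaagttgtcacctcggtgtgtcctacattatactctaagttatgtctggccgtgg

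All 3 sequences held the octamer and CCAAT, and Hist3h2a had no TATAAA in this window. The window printed for Hist2h2ac also takes in the start of Hist2h2be, on the opposite strand, within its first bases as written. The matches describe letters only.

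Copies of near-identical sequence were common among the histone genes, and whether reads matching several places were counted was not given in the sources used here. By median 45.9% of a gene's 50-base words were found in no other annotated transcript, on either strand. A word shared with an overlapping gene at the same place also counts as shared, so a low share need not mean a copy. Hist2h2bb, for example, had 0% such words but shared none with another histone gene, and its exon overlaps other genes on both strands. The 32 tested genes with at least 50% of such words had a median change of -0.59 (27 lower), and the 32 with fewer had -0.70 (30 lower). The 8 genes with at least 90% had a median of -0.51 (6 lower), among them Hist1h1c, Hist1h1d, Hist1h1a, Hist2h4 and Hist4h4. An exon of another gene lay on the opposite strand of 21 of the 67 genes, and whether the counting used the strand was not given. Genes with a stem-loop match had a median of -0.65 (44 tested) and those without -0.70 (20 tested). Where at least 300 annotated bases follow the stem-loop the median was -0.52 (17 tested), and where fewer do it was -0.69 (27 tested). None of these differences was tested.

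**Figure D5:**
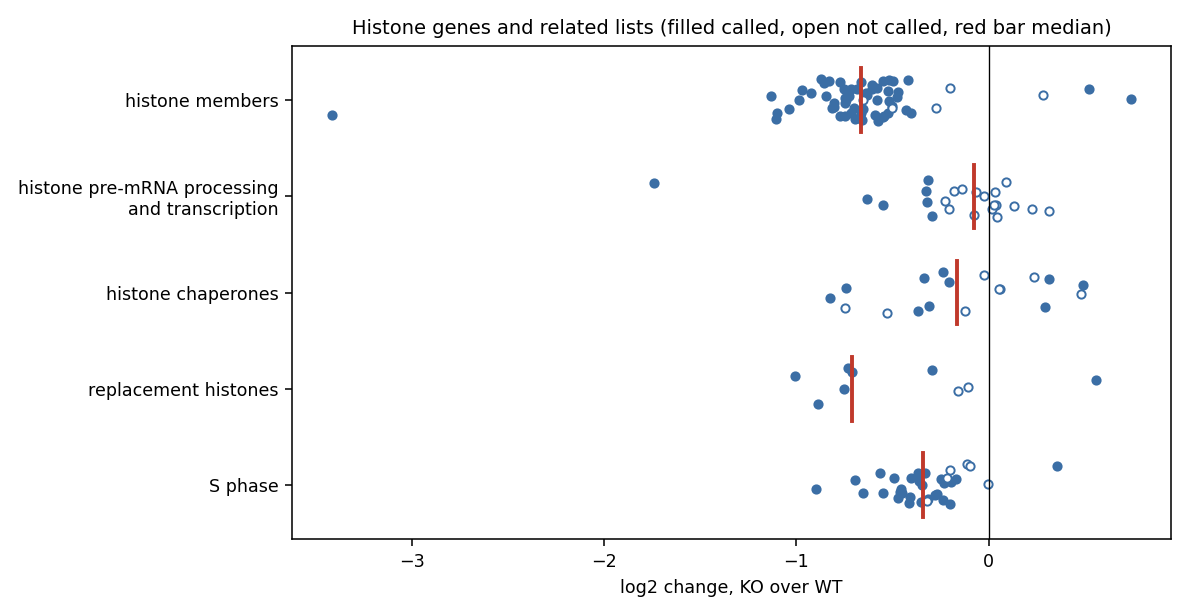
Log2 change of KO over WT (x axis) of the tested histone genes and of 4 related lists, with filled points for called genes, open points for genes not called and a red bar at the median. The medians of the histone genes (-0.66) and of the replacement histones (-0.71) lie further below 0 than those of the S phase (-0.34), chaperone (-0.16) and processing lists (-0.08).

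Genes that make and process histone mRNA had a median change closer to 0 than the histone genes themselves. Of 23 tested genes for histone mRNA transcription and processing, 7 were lower and 0 were higher (edgeR, background 20.9% lower and 21.7% higher), with a median of -0.08. Zfp473, whose human counterpart binds the U7 particle, was at 19.9, 20.1 and 17.8 CPM in WT and at 6.27, 5.35 and 5.67 CPM in KO (-1.74 ± 0.11, edgeR adjusted p = 3.9e-05). Eri1, a nuclease that trims the end of histone mRNA, was at 201, 204 and 199 CPM in WT and at 141, 139 and 134 CPM in KO (-0.55 ± 0.05). Both were apart between genotypes in every library.

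Slbp, the stem-loop binding protein, was at 232, 247 and 233 CPM in WT and at 193, 198 and 180.4 CPM in KO (-0.32 ± 0.06, edgeR adjusted p = 0.0037). Casp8ap2 was at 262, 263 and 254 CPM in WT and at 212, 211 and 199.7 CPM in KO (-0.32 ± 0.05), and Cstf2, a cleavage factor subunit, changed by -0.33 ± 0.05. The KO libraries were below WT in all 3 genes. Npat, which switches on histone transcription, was at 117, 118 and 125 CPM in WT and at 128, 120.5 and 121 CPM in KO, so that the groups overlapped (0.04 ± 0.05, edgeR adjusted p = 0.62). Its sign turned with a correction for gene length and with a Y-linked covariate. Lsm10 (-0.18 ± 0.18) and Lsm11 (-0.21 ± 0.08, edgeR adjusted p = 0.064), proteins of the U7 particle, were not called. Rnu7, the RNA of that particle, had 0 counts in every library. Its deposited length is 62 bases, and RNA this short may not be kept in the libraries, so the 0 says nothing of its level.

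The replacement histones are made outside S phase as well, from genes that mostly give polyadenylated mRNA. Of 9 tested, 6 were lower and 1 was higher (background 20.9% lower and 21.7% higher), with a median of -0.71. H2afz was at 558, 607 and 562 CPM in WT and at 341, 358 and 326 CPM in KO (-0.75 ± 0.06, edgeR adjusted p = 8.8e-05). H2afx, which is phosphorylated at DNA breaks, was at 499, 563 and 544 CPM in WT and at 324, 329.8 and 328 CPM in KO (-0.71 ± 0.06). Both fell about as far as the median of the replication-dependent genes. H2afy changed by -0.89 ± 0.08, Cenpa, the H3 of centromeres, by -1.01 ± 0.12 and H1f0, a linker histone, by -0.73 ± 0.15. H3f3b, a gene for H3.3, was at 959.8, 1082 and 989 CPM in WT and at 840.0, 856 and 776 CPM in KO (-0.29 ± 0.06, edgeR adjusted p = 0.008). H3f3a, the other H3.3 gene, changed by -0.11 ± 0.06 and was not called, and its sign turned under spike-in scaling.

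Of 18 genes for histone chaperones, which carry histones to DNA, 7 were lower and 3 were higher, with a median of -0.16. Over all tested genes 20.9% were lower and 21.7% higher, so the share of chaperone genes called higher was not above that background. Asf1b changed by -0.83 ± 0.13 and Nasp by -0.37 ± 0.05, while Rbbp4 rose by 0.49 ± 0.07 and Atrx by 0.30 ± 0.05. Of 34 S phase genes 27 were lower and 1 was higher, beside the same background, with a median of -0.34. The replication genes Mcm7 (-0.46 ± 0.05), Mcm3 (-0.41 ± 0.06) and Pold1 (-0.90 ± 0.12) and the thymidine kinase Tk1 (-0.56 ± 0.06) were among those called lower by edgeR. The summed level of the histone genes was 3.35, 3.31 and 3.52 times that of the S phase list in WT and 2.56, 2.77 and 2.70 times in KO. The ratio was lower in every KO library than in every WT library. A part of a lower share of S phase cells in the fall of the histone genes was not tested.

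Fewer calls were made when the libraries were scaled to spike-in RNA. Scaled to the 92 spike-in RNAs instead of by TMM, all tested genes shifted by a median of 0.14, and 3085 were higher and 1363 lower, against 3466 and 3343 by TMM. The histone genes then had a median of -0.54, which is -0.67 relative to all genes, and 34 of the 57 remained called lower. Among those no longer called were Hist1h1a, Hist1h1c, Hist1h1d and Hist1h1e, and Hist2h2be and Hist3h2a were still called higher. Of the related genes, Slbp, Casp8ap2, Eri1, Cstf2, Nasp, H3f3b, Atrx, Mcm7, Mcm3 and Tk1 were no longer called, and 2 S phase genes were lower. A further fit took KO replicate 2, which had the fewest Y-linked reads, as the only KO library. The median change of the histone genes was then -0.63, against 0.006 over all tested genes. Hist2h2be changed by 0.57 and was not called. The calls lost were those of Hist1h1a, Hist1h1b, Hist1h2ao, Hist1h2bq, Hist1h2br, Hist1h4c, Hist1h4i, Hist1h4m, Hist1h4n, Hist2h3b and Hist2h4. A fit that took the Y-linked level into account left 49 histone genes lower (10.3% of all tested genes were lower), without Hist1h1a, Hist1h2bq, Hist1h4c, Hist1h4i, Hist1h4m, Hist1h4n, Hist2h3b and Hist2h4. Relative to the highest library, the Y-linked level was 0.96, 0.13 and 1 in KO replicates 1, 2 and 3 and 0 in WT. That fit therefore leans mainly on KO replicate 2 and does not separate sex from genotype. Hist1h4i, for example, had an edgeR adjusted p of 0.34 under spike-in scaling, 0.12 with KO replicate 2 alone and 0.11 with the Y-linked level. Spike-in RNA took 0.161% to 0.216% of counts, and how it was added was not given in the sources used here. In the authors' deposited table, 61 of the 67 genes have a fold change and an adjusted p, of which 55 are lower and 2 higher at an adjusted p under 0.05.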

How the data were processed

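Per the labels' protocols, stranded libraries were made from total RNA after ribosomal RNA removal. The submitters' processing notes name STAR, featureCounts, DESeq2, DESeq and GRCm38.p3, without versions or settings. The authors deposited raw counts per gene, a normalized signal, a gene length in bases and, for KO against WT, a log2 change with its adjusted p-value. Only the counts entered the fits; the authors' comparison was used for 1 count of calls.

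Genes were filtered with filterByExpr (minimum count 10, total 15), scaled by TMM and tested with the quasi-likelihood test of edgeR 4.0.16 (R 4.3.3), with genotype as the only term. The SE is the absolute unshrunk coefficient over the square root of F. Alternatives used DESeq2 1.42.0 and limma 3.58.1. The fits were tested on simulated data. Stem-loops, 50-base words, exons and positions came from GENCODE M21 (all 67 genes matched), promoters from RefSeq. Zero floors are 3 counts and cover counting error only.

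Values in every library were given for the 3 genes of each type highest in WT, genes called higher, H1, Hist3 and Hist4 genes, and the 5 largest and 5 smallest falls called. From the lists, up to 4 genes of lowest p and 10 set genes were named, some by their log2 change alone. Hist1h4n, Hist1h4k and Hist3h2bb-ps were named after their values were seen. Members and lists were chosen with earlier results of these data known. In the list for processing, 24 of 25 symbols were in the table.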

Additional observations from a re-analysis of the deposited data

How the results depend on the processing

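Under DESeq2, RLE and upper-quartile scaling, TMM without histone genes, limma-voom, both filters and the length correction, 55 to 57 histone genes were called lower and 2 higher (55 under DESeq2, with Hist1h2bq at an adjusted p of 0.050 and none given for Hist1h4m). Over these fits 10.8% to 22.4% of all tested genes were lower. Leaving out each library in turn gave 54 to 58 lower and 2 higher, while 15% to 21.2% of all tested genes were lower. Hist3 had 0 to 1 lower, with Hist3h2ba called without WT replicate 1. Replicate numbers did not pair the samples (correlations of same-numbered samples -0.024, 0.006 and 0.082). With them as a replicate block, 55 histone genes were lower, without Hist1h2bq and Hist1h4m (18.7% of all tested genes were lower).

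Spike-in scaling called 4448 genes, with 8.52% of all tested genes lower. Lower were 34 histone genes (median -0.54), with 1 H1, 4 H3, 8 H4, 29 Hist1 and 0 Hist4 genes. So were 1 processing, 3 chaperone and 2 S phase genes. Summed levels in KO were then 69.9% of WT for all histone genes and 69.8% for Hist1. By type they were 73.3% for H1, 68.8% for H2a, 66.2% for H2b, 73.3% for H3 and 68.2% for H4. The Hist3 sum was at 100.7%, a reversal from 91.8% by TMM. H3f3a was at 0.024.

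KO replicate 2 as the only KO library called 2752 genes, 46 histone genes lower and 1 higher, with 3 H1 and 8 H4 genes lower, and 4 processing, 3 chaperone and 7 S phase genes. The lone library is assumed to vary like WT. A Y-linked covariate called 3478 genes (10.3% of all tested genes lower), 49 histone genes lower, 8 of H4, and 4 chaperone and 8 S phase genes. The first also lost Hist1h1b, Hist1h2ao, Hist1h2br and Hist2h2be. The cause of the lost calls was not tested.

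Restricted to genes with at least 90% unique words, the H2b sum was 143.7% of WT, since only Hist2h2be is left. Hist1h1t ranged from -0.055 (without WT replicate 2) to 0.80 with libraries left out, and Npat at -0.020 with the length correction and -0.0012 with the Y-linked covariate. Depth limits the values of the genes under 1 CPM, such as Hist1h1t.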
